A study of Gallus gallus with 5 samples.

Results

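The transcripts described here code for the MAP kinase cascades, the protein kinase C (PKC) family and the proteins that hold both in check. They were taken by gene symbol, as every symbol that begins with MAPK, MAP2K, MAP3K, MAP4K, DUSP, SPRY, SPRED, RASA followed by a digit, RASGRP or PRKC, which gave 79 of the 24356 genes listed. Granulosa cells, the epithelial layer next to the oocyte, were compared between 2 hens fed ad libitum (FF) and 3 hens kept on a restricted allowance (RF). All were broiler breeder hens, the diets started at 28 weeks of age and ran for 6 weeks, and each library is RNA of 1 hen, pooled from 5 to 6 follicles of 6 to 8 mm. FF hens were picked for sequencing because they carried an excess of preovulatory follicles and RF hens because they carried a normal number, and each diet had its own pen, so that diet, pen and follicle number cannot be told apart. A further FF library, set aside by the authors after clustering, was not analysed here.

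In a MAP kinase cascade, a MAP3K phosphorylates a MAP2K, which phosphorylates a MAP kinase such as ERK, JNK or p38. Dual-specificity phosphatases (DUSP) remove that phosphate again, while Sprouty (SPRY) and SPRED proteins restrain the RAS-RAF step above ERK, and several of these brakes are themselves transcribed in response to ERK. PKC enzymes respond to diacylglycerol, calcium or polarity complexes. In granulosa cells of hen follicles before selection, MAP kinase and PKC signalling are known for holding back differentiation.

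Values are counts per gene that the authors scaled by a size factor for each library and rounded, called normalized counts here. Library totals were 29491091 and 28891495 normalized counts in FF hens and 25929234 to 27277087 in RF hens, which stood for about 25400000 and 31600000 reads in genes for FF hens and 21400000 to 33500000 for RF hens. The granulosa markers FSHR, FOXL2, AMH, GATA4, INHA and WT1 were well expressed in all 5 libraries, the lowest value being 1311 for WT1 in FF replicate 2. Their levels were not all alike between the diets, as given with the markers of other cells below. Of the 79 genes, 69 had a mean of at least 10 and were tested with limma on log2(normalized count + 1), as part of all 13305 genes that passed this minimum. A gene was called when its Benjamini-Hochberg adjusted p over all tested genes was under 0.05.

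Most of these transcripts showed no called difference. MAPKKK3L was called higher in FF hens and MAPK8IP3 was called lower, which is 1 of 69 in each direction, where 0.842% of all tested genes were called higher and 0.241% lower (1.08% in either direction). The study's thresholds also ask for a log2 fold change larger than 1 and at least 200 reads, taken here as the mean of either diet group. Applied to the limma fit, they called MAPKKK3L higher and 0 members lower, beside 0.699% and 0.15% of all tested genes. The study's own DESeq2 run was not repeated here, and its calls can differ from these. The median log2 fold change was −0.02 over the 69 members and 0.01 over all tested genes. In whole granulosa layers, a difference in the number of cells that express a gene and a difference in RNA per cell cannot be told apart.

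Among the tested members, 50 (72.5%) had a fold change within 0.5 log2 units of 0, and 73.8% of all tested genes did. For 43 members (62.3%) the 95% interval of the fold change lay within 1 log2 unit on both sides of 0, and 60.2% of all tested genes met the same limit. At an unadjusted p under 0.05, 7 members were higher and 4 were lower in FF hens (15.9% in all), beside 9.58% of tested genes higher and 8.22% lower (17.8% in all). Both FF libraries lay above all 3 RF libraries for 12 members (17.4%; background 19.3%) and below all 3 for 13 members (18.8%; background 16.9%), together 36.2% of members beside 36.3% of tested genes. The shares of members were thus close to those of the transcriptome at large.

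**Figure D1:**
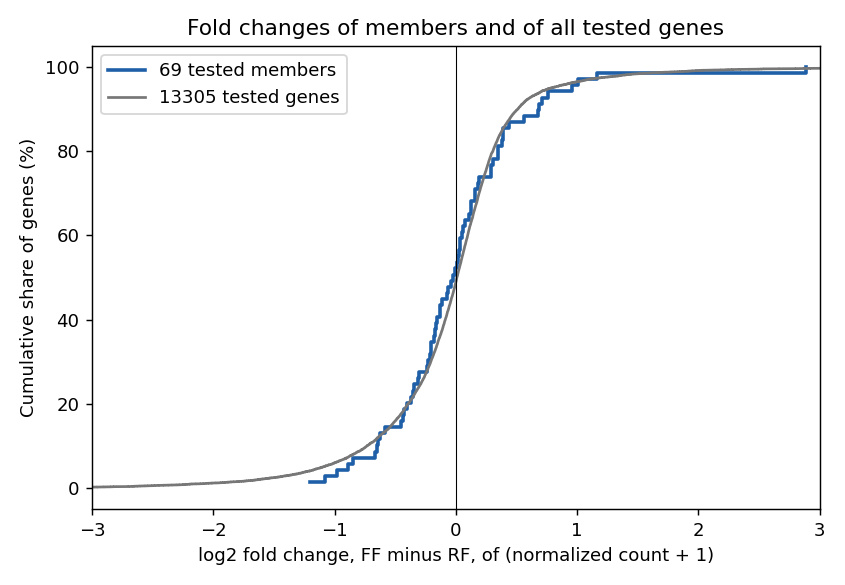
Cumulative share of genes (y axis, %) against the log2 fold change, FF minus RF (x axis), for the 69 tested members (blue) and all 13305 tested genes (grey, axis ending at −3 and 3). Both curves cross the middle near 0, at medians of −0.02 and 0.01.

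**Figure D2:**
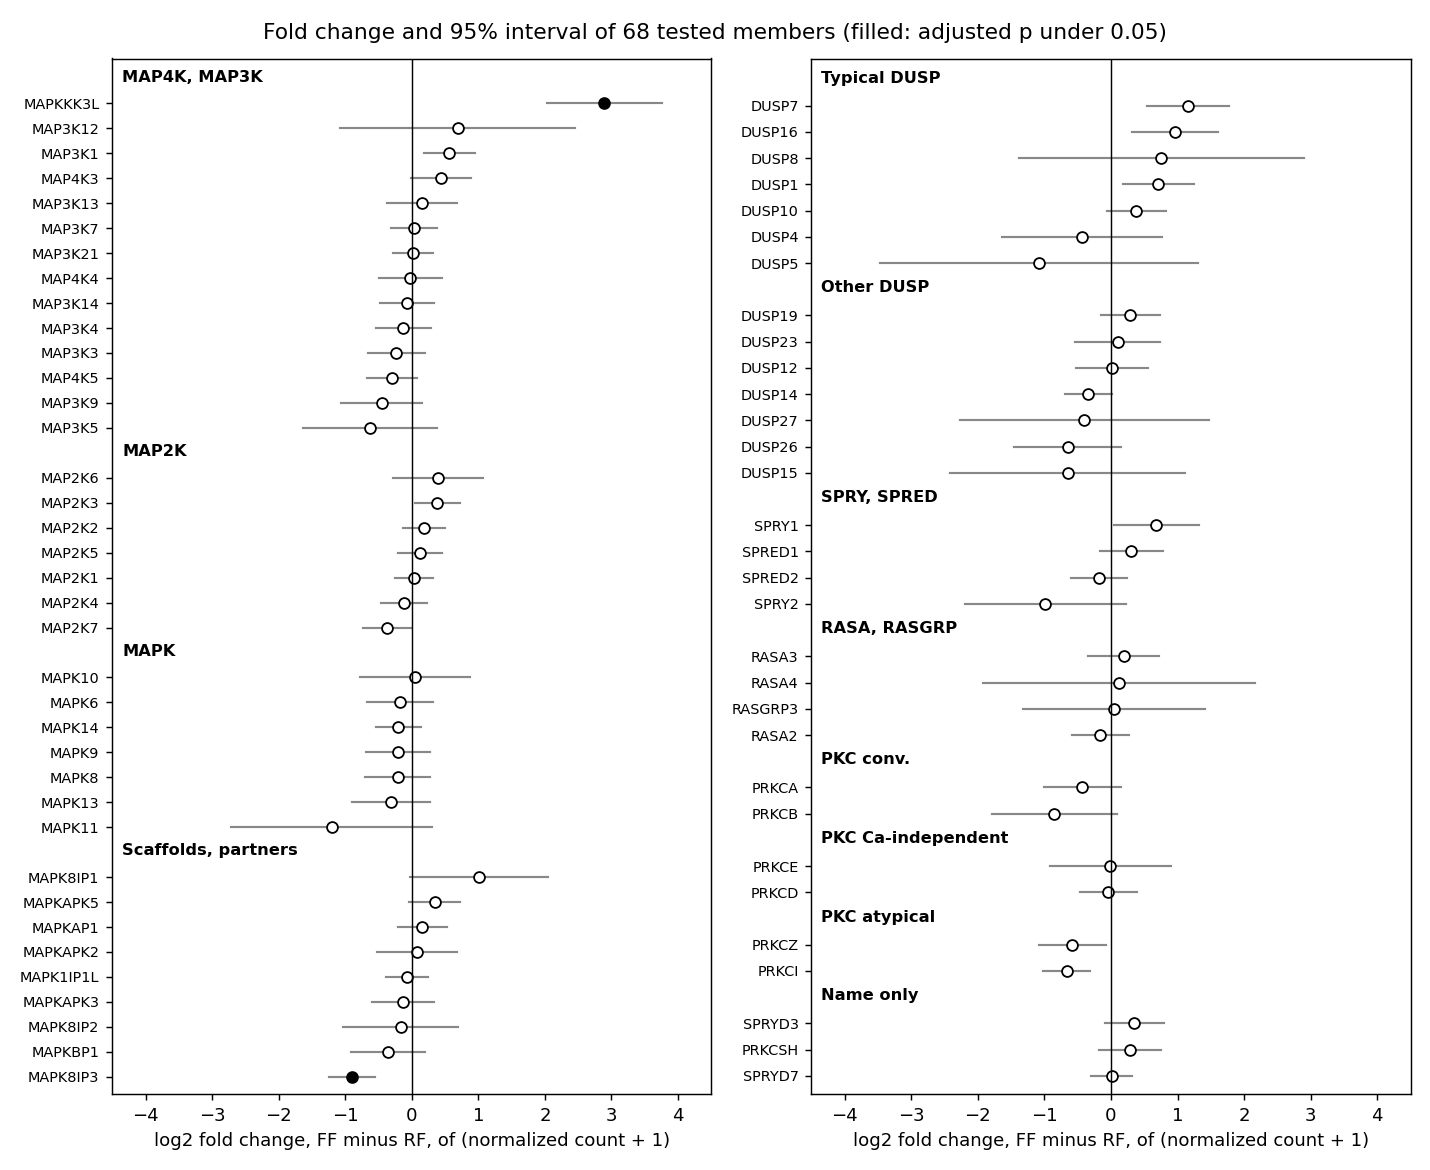
Log2 fold change, FF minus RF, of 68 of the 69 tested members (points) with its 95% interval (lines), grouped by role; filled points had an adjusted p under 0.05 in limma. The filled points are MAPKKK3L (2.89) and MAPK8IP3 (−0.89).

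At the top of the cascades, 17 MAP4K and MAP3K genes were listed and 14 were tested, with 1 called higher, 0 called lower and a median log2 fold change of 0.00. The called gene was MAPKKK3L (ENSGALG00000005884), which is placed here by its symbol alone. It had 300 and 240 normalized counts in FF hens, against 46, 40 and 24 in RF hens. The groups lay far apart, and the means of 270.0 ± 42.4 (SD, n = 2) in FF hens and 36.7 ± 11.4 (SD, n = 3) in RF hens differed 7.36-fold. The log2 fold change was 2.89 ± 0.36 (SE), with an adjusted p = 0.0265 in limma. The paper, which used DESeq2 on the same hens, also lists MAPKKK3L among its top genes higher in FF hens. When 1 library was left out at a time, the fold change ran between 2.62 and 3.07, and the call held without RF replicate 3 (adjusted p = 0.0345) but not without FF replicate 1 (0.214), FF replicate 2 (0.135), RF replicate 1 (0.0652) or RF replicate 2 (0.0752). It also missed the threshold with no minimum mean (0.0635), without the variance trend (0.079) and with a replicate block (0.0508).

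MAP3K1, also known as MEKK1, feeds the JNK pathway through MAP2K4. It had 1473 and 1430 normalized counts in FF hens, against 841, 1090 and 1033 in RF hens. The FF libraries were nearly equal and above all RF libraries, with a log2 fold change of 0.56 ± 0.16 (SE) and an adjusted p = 0.149. MAP4K3, a kinase of the germinal-centre family tied to amino acid sensing, had 1563 and 1600 in FF hens, against 992, 1108 and 1452 in RF hens (log2 fold change 0.44, 95% interval −0.01 to 0.88). MAP4K5, a relative of MAP4K3, stood the other way with 597 and 641 in FF hens, against 713, 739 and 845 in RF hens (log2 fold change −0.30, 95% interval −0.68 to 0.07). MAP4K4, with the highest normalized counts of this tier (not corrected for gene length), had 3723 and 4153 in FF hens, against 3245, 3890 and 5032 in RF hens, where the RF libraries spanned both FF values. Its log2 fold change of −0.02 turned positive (0.06 and 0.15) without FF replicate 1 or RF replicate 3.

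MAP3K5, the stress-activated kinase ASK1, differed more among RF hens than between the diets. It had 981 and 729 normalized counts in FF hens, against 706, 1903 and 1666 in RF hens. MAP3K7 (TAK1), which relays TGF-beta and cytokine signals, had 2700 and 2923 in FF hens, against 2407, 2856 and 3034 in RF hens, an overlap of the groups (log2 fold change 0.03, 95% interval −0.31 to 0.37). The remaining 7 tested genes of this tier had log2 fold changes between −0.45 (MAP3K9) and 0.69 (MAP3K12), and their groups overlapped. MAP3K12, a kinase best known from neurons, owed its value to FF replicate 1, with 77 and 14 normalized counts in FF hens, against 21, 14 and 28 in RF hens. MAP3K6, MAP3K8 and MAP3K15 were too low to test. Of these, MAP3K8, which phosphorylates MEK downstream of immune receptors, had 1 and 5 in FF hens, against 17, 12 and 10 in RF hens.

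The 7 MAP2K genes, the middle tier, gave 0 calls, with 5 positive and 2 negative fold changes and a median of 0.12. MAP2K3, an activator of p38, had 1214 and 1229 normalized counts in FF hens, against 974, 984 and 854 in RF hens. The FF libraries were above all RF libraries, by a log2 fold change of 0.38 ± 0.14 (SE) with an adjusted p = 0.228 in limma. MAP2K7, an activator of JNK, had 2327 and 2915 in FF hens, against 3070, 3450 and 3628 in RF hens. Here the FF libraries were below all RF libraries, with a log2 fold change of −0.37 ± 0.15 (SE) and an adjusted p = 0.262. MAP2K1 and MAP2K2 code for MEK1 and MEK2, which phosphorylate ERK. MAP2K1 had 3493 and 3300 in FF hens, against 3510, 3119 and 3322 in RF hens, and its 95% interval ran from −0.25 to 0.32. Its log2 fold change of 0.04 turned to −0.10 with libraries scaled to equal totals and to −0.01 with equal upper quartiles, without FF replicate 1 and without RF replicate 2. MAP2K2 had 1328 and 1500 in FF hens, against 1245, 1234 and 1244 in RF hens, and the RF values were nearly equal. MAP2K4, MAP2K5 and MAP2K6 overlapped between the diets, and MAP2K5 changed sign (−0.01) with equal totals. MAP2K6 had 334 and 601 in FF hens, against 318, 394 and 318 in RF hens. Its log2 fold change of 0.39 turned to −0.03 without FF replicate 2.

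Of 9 MAP kinases, 8 were tested and 0 were called. The fold change was negative for 7 of the 8, with a median of −0.21 (−0.35 with equal totals), and with equal totals MAPK10 was also negative (−0.08). MAPK14, the ubiquitous p38 alpha, had 984 and 1107 normalized counts in FF hens, against 1117, 1221 and 1277 in RF hens (−0.20, 95% interval −0.54 to 0.13). MAPK13, p38 delta, had 101 and 113 in FF hens, against 116, 143 and 142 in RF hens (−0.31, 95% interval −0.91 to 0.28). In both genes the groups did not overlap, the gap between the nearest hens was small and FF replicate 1 was the lowest of the 5 libraries. The JNK genes MAPK8 and MAPK9 had log2 fold changes of −0.21 each, and their RF replicate 3 values, 1318 and 1776, stood above the other libraries. MAPK11, p38 beta, was sparse and uneven, with 20 and 10 in FF hens, against 46, 53 and 16 in RF hens. MAPK6 overlapped between the diets, and MAPK12 was not tested.

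The 9 scaffolds, substrates and partners of MAP kinases held the called decrease. MAPK8IP3 (ENSGALG00000029514) codes for JIP3, a scaffold that binds JNK and its upstream kinases and links them to kinesin transport. It had 713 and 808 normalized counts in FF hens, against 1337, 1372 and 1527 in RF hens. The means were 760.5 ± 67.2 (SD, n = 2) in FF hens and 1412 ± 101 (SD, n = 3) in RF hens, and no hen lay between the groups. MAPK8IP3 fell by 0.89 on the log2 scale, with an SE of 0.14 and an adjusted p = 0.04996 in limma, at the very edge of the threshold. Leaving out any of the 5 libraries gave an adjusted p of 0.0924 to 0.246, with the fold change between −0.98 and −0.80. A pseudocount of 0.5 or robust variances (0.0502 each), no minimum mean (0.0925), no variance trend (0.111) and a replicate block (0.104) also ended the call.

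The other JNK-interacting scaffolds were not called. MAPK8IP1 (JIP1) had 629 and 687 normalized counts in FF hens, against 524, 378 and 176 in RF hens, so that FF libraries were higher and RF hens were spread widely. Its log2 fold change was 1.01 ± 0.43 (SE), with an adjusted p = 0.292 and a 95% interval of −0.03 to 2.04. MAPK8IP2 (JIP2) overlapped, with 347 and 149 in FF hens, against 234, 277 and 258 in RF hens. MAPKAPK2 and MAPKAPK3, kinases activated by p38, overlapped too, and MAPKAPK3 had 4009 and 5928 in FF hens, against 4751, 5344 and 6001 in RF hens. The log2 fold change of MAPKAPK3 was −0.13 and became 0.15 without FF replicate 1. MAPKAPK5 had 2704 and 2889 in FF hens, against 2470, 1854 and 2333 in RF hens, a log2 fold change of 0.34 (95% interval −0.04 to 0.72). MAPK1IP1L hardly varied, with 886 and 891 in FF hens, against 943, 933 and 922 in RF hens. MAPKAP1, a subunit of the mTORC2 complex, and MAPKBP1, a JNK-binding protein, overlapped between the diets.

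**Figure D3:**
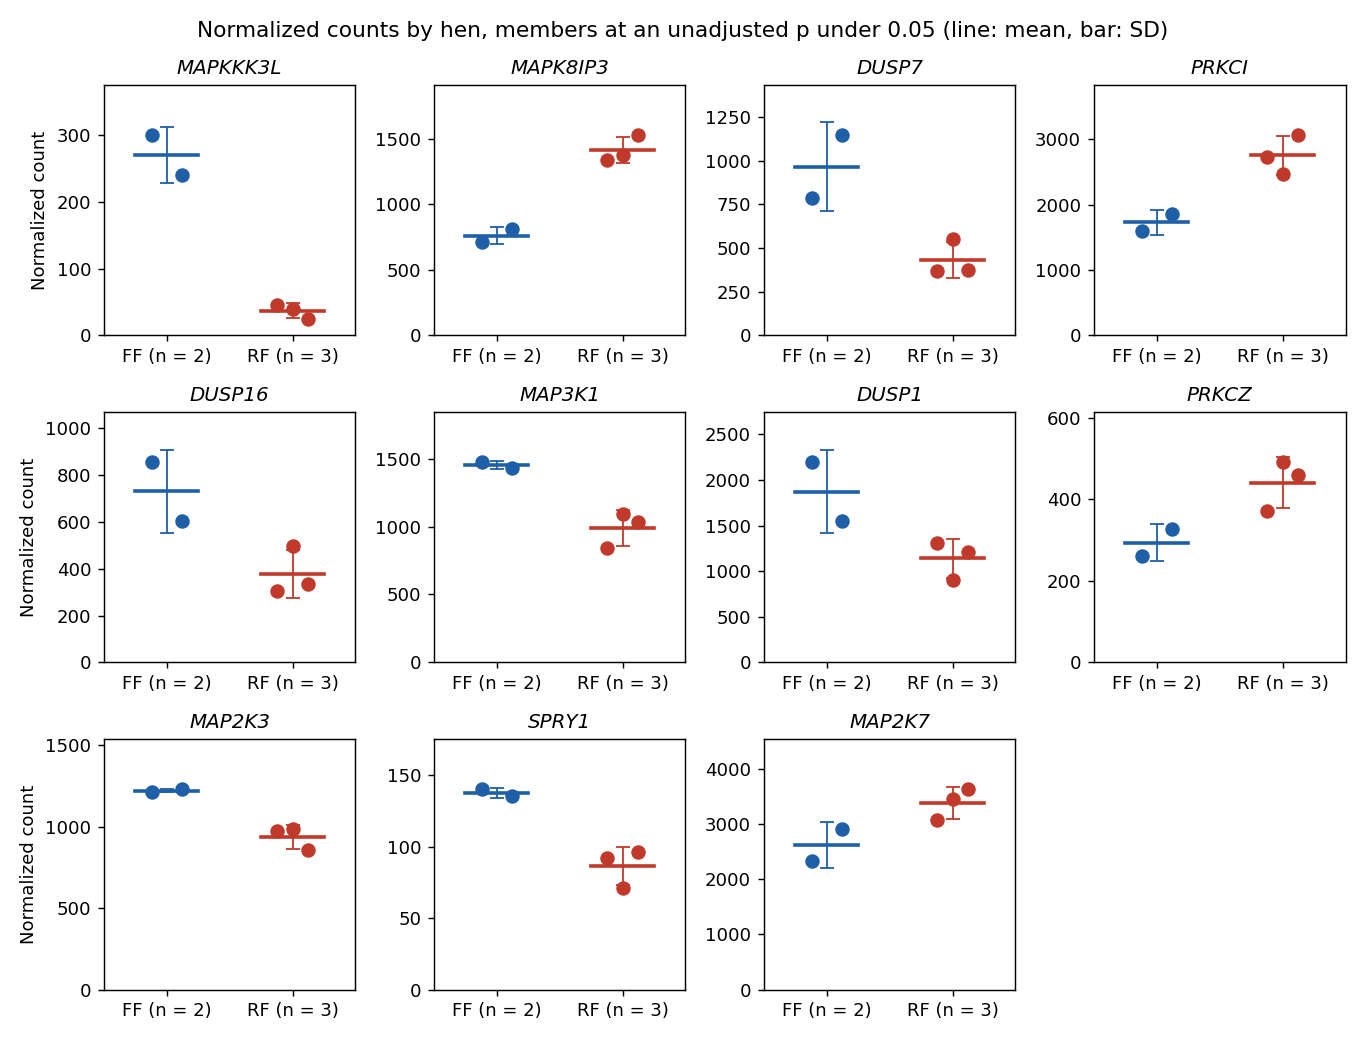
Normalized counts (y axes, each from 0) of the 11 members with an unadjusted p under 0.05 in limma, for 2 FF hens (blue) and 3 RF hens (red); horizontal lines are means and bars SD. In each panel the FF and RF points do not overlap, as for MAPKKK3L with 300 and 240 in FF hens against 46, 40 and 24 in RF hens.

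The 7 typical MAP kinase phosphatases, which dock on a MAP kinase and inactivate it, gave 0 calls, a median log2 fold change of 0.71 (0.57 with equal totals) and 4 genes whose FF libraries lay above all RF libraries, as they did for 19.3% of all tested genes. DUSP7, a cytoplasmic phosphatase of ERK, had 786 and 1147 normalized counts in FF hens, against 369, 550 and 375 in RF hens. The lowest FF hen was still well above the highest RF hen, with a log2 fold change of 1.16 ± 0.26 (SE) and an adjusted p = 0.0902 in limma. DUSP16, a phosphatase of JNK and p38, had 854 and 605 in FF hens, against 306, 495 and 333 in RF hens. This was a log2 fold change of 0.96 ± 0.27 (SE) with an adjusted p = 0.145. DUSP1, the stress-induced nuclear phosphatase MKP-1, had 2196 and 1553 in FF hens, against 1308, 904 and 1215 in RF hens. Its log2 fold change was 0.71 ± 0.22 (SE), with an adjusted p = 0.182. DUSP10, which acts on p38 and JNK, had 2804 and 2664 in FF hens, against 2660, 1898 and 1836 in RF hens, where RF replicate 1 nearly reached the FF level (0.38, 95% interval −0.07 to 0.83).

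The other 3 typical phosphatases overlapped between the diets, and the size of their fold changes moved with single hens. DUSP4, a nuclear phosphatase induced by ERK, had 224 and 214 normalized counts in FF hens, against 405, 460 and 139 in RF hens. Its log2 fold change of −0.43 ran from −0.98 to −0.12 when 1 library was left out at a time. DUSP5, a nuclear phosphatase specific to ERK, had 20 and 20 in FF hens, against 25, 197 and 16 in RF hens. Without RF replicate 2 the DUSP5 log2 fold change went to −0.0016, against −1.08 with all libraries. DUSP8, a phosphatase of JNK and p38, had 37 and 5 in FF hens, against 10, 12 and 4 in RF hens, with FF replicate 1 alone above the rest.

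Of the 10 other DUSP genes, 7 were tested and 0 were called, with a median log2 fold change of −0.34. DUSP14, a small phosphatase without the MAP kinase docking domain, had 1724 and 1615 normalized counts in FF hens, against 2141, 2374 and 1864 in RF hens. The FF libraries were below all RF libraries, with a log2 fold change of −0.34 (95% interval −0.69 to 0.01). DUSP26 had 439 and 434 in FF hens, against 768, 429 and 971 in RF hens, so that 1 RF hen matched the FF level. DUSP12, DUSP15, DUSP19, DUSP23 and DUSP27 overlapped between the diets. DUSP13 was listed at 0 in all 5 libraries, and DUSP21 and DUSP28 were also too low to test.

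The SPRY and SPRED genes had no common direction: 6 were listed, 4 were tested, 0 were called, and 2 fold changes were positive and 2 negative. SPRY1 had 140 and 135 normalized counts in FF hens, against 92, 71 and 96 in RF hens. The FF libraries were above all RF libraries by a log2 fold change of 0.68 ± 0.27 (SE), with an adjusted p = 0.256 in limma. SPRY2 had 19 and 20 in FF hens, against 45, 62 and 22 in RF hens. Its FF libraries were below all RF libraries, with RF replicate 3 close to them, and its 95% interval of −2.20 to 0.23 was wide. SPRY3 had 0 and 0 in FF hens, against 17, 4 and 1 in RF hens, and a count of 0 allows up to 3.48 and 2.74 normalized counts (3 reads) in FF replicates 1 and 2, counting error only. SPRY4 had 5 and 5 in FF hens, against 15, 12 and 5 in RF hens, and neither SPRY3 nor SPRY4 was tested.

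The SPRED proteins block RAF activation at the membrane. SPRED1 had 734 and 630 normalized counts in FF hens, against 476, 663 and 525 in RF hens, which overlapped (0.31, 95% interval −0.17 to 0.78). SPRED2 had 441 and 360 in FF hens, against 444, 462 and 451 in RF hens, and FF replicate 1 lay just below the lowest RF hen. For the ERK feedback genes as a set (SPRY, SPRED, DUSP4 and DUSP5, with 8 listed and 6 tested), the median log2 fold change was −0.31 with 0 calls. DUSP6 was planned as part of this set, but its symbol was not among the genes listed.

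Among the RAS regulators, the RASA proteins speed the GTPase reaction that switches RAS off, and the RASGRP proteins, which bind diacylglycerol, switch it on. Of 5 genes 4 were tested, 0 were called and the groups overlapped in each. RASA4 varied most, with 2443 and 556 normalized counts in FF hens, against 3017, 529 and 771 in RF hens. In this gene FF replicate 1 and RF replicate 1 were high and the other 3 hens low, and its log2 fold change of 0.12 ± 0.86 (SE) ran from −0.95 without FF replicate 1 to 1.19 without FF replicate 2. RASA2 and RASA3 had log2 fold changes of −0.16 and 0.19. RASGRP3 had 24 and 35 in FF hens, against 33, 47 and 14 in RF hens, and RASGRP1 was not tested.

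All 6 PKC kinases had fold changes below 0, with a median of −0.51 (−0.64 with equal totals), and 0 were called. The signs of PRKCD and PRKCE did not hold when single libraries were left out. Of the 6 kinases, 3 were lower in each FF hen than in each RF hen, beside 16.9% of all tested genes. Both atypical PKCs, which respond to polarity complexes in place of calcium and diacylglycerol, were among these 3. PRKCI had 1599 and 1865 normalized counts in FF hens, against 2726, 2469 and 3068 in RF hens. Its log2 fold change was −0.67 ± 0.15 (SE), with an adjusted p = 0.0913 in limma. PRKCZ had 262 and 326 in FF hens, against 372, 491 and 460 in RF hens. The log2 fold change of PRKCZ was −0.58 ± 0.21 (SE), with an adjusted p = 0.223. Over the alternatives run, the adjusted p ran from 0.0551 to 0.326 for PRKCI and from 0.143 to 0.523 for PRKCZ.

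The conventional PKCs need both calcium and diacylglycerol. PRKCA had 439 and 349 normalized counts in FF hens, against 409, 565 and 639 in RF hens, an overlap through RF replicate 1 (−0.43, 95% interval −1.01 to 0.14). PRKCB was sparse, with 17 and 23 in FF hens, against 42, 40 and 29 in RF hens (−0.85, 95% interval −1.79 to 0.09). The calcium-independent, diacylglycerol-responsive PRKCD had 1164 and 1343 in FF hens, against 1492, 1321 and 1073 in RF hens. Its log2 fold change of −0.04 turned positive (0.07 in both cases) without FF replicate 1 or RF replicate 1. PRKCE, of the same class, had 276 and 262 in FF hens, against 201, 212 and 463 in RF hens, and its value of −0.01 rested on RF replicate 3, without which it was 0.38.

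For 3 genes the symbol matched but the protein has another role. PRKCSH codes for the beta subunit of glucosidase II, an enzyme of glycoprotein folding, and SPRYD3 and SPRYD7 carry a SPRY domain that is unrelated to Sprouty. PRKCSH had 5119 and 3610 normalized counts in FF hens, against 3626, 4032 and 2996 in RF hens. All 3 overlapped between the diets and 0 were called. Without them 76 genes were listed, 66 were tested and the median was −0.05.

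**Figure D4:**
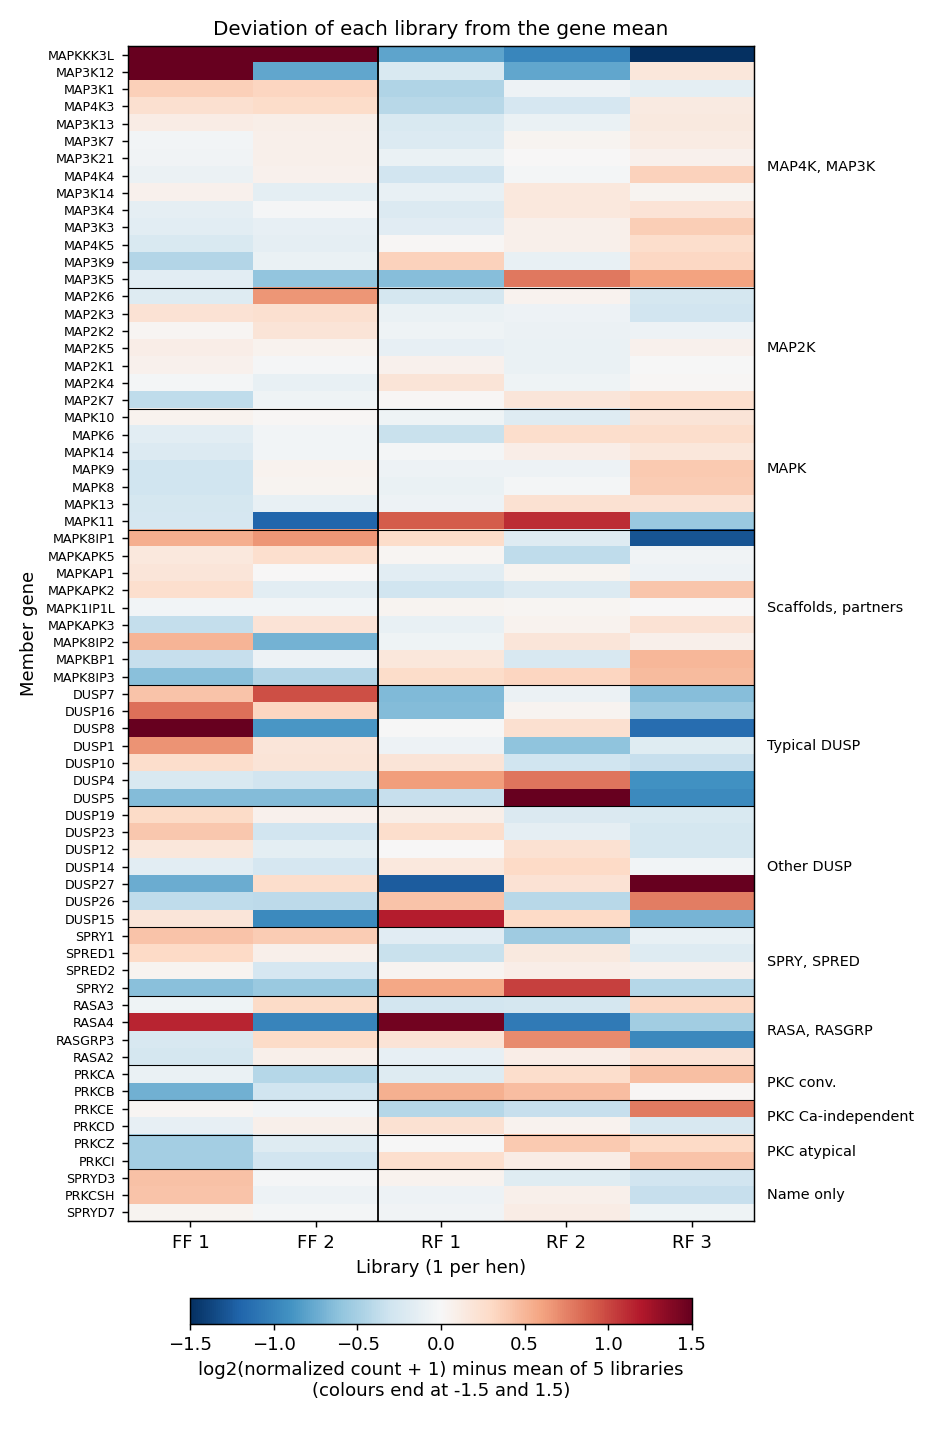
Deviation of each library from the mean of 5 libraries in log2(normalized count + 1) for 68 of the 69 tested members, with the 2 FF hens left of the line and the 3 RF hens right of it (red above the mean, blue below). RASA4 is high in FF replicate 1 and RF replicate 1, and DUSP5 is high in RF replicate 2.

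Hens of 1 diet differed as well. Over the 61 members with a mean of at least 50, the highest library exceeded the lowest by a median of 1.14-fold between the 2 FF hens and 1.33-fold among the 3 RF hens (1.19 and 1.29 over all genes with that mean). The ratio was above 2 for 3 of these members in FF hens and for 8 in RF hens. RF replicate 3 held the highest value of 24 of the 69 tested members (34.8%, beside 23.0% of all tested genes) and RF replicate 1 the lowest value of 20 (29.0%, beside 20.3%). RF replicate 2 was highest for 12.6% of all tested genes, and for 9 of 17 tested genes of the ERK-responsive list described next, EGR1 among them with 626 normalized counts. Among the tested feedback genes and phosphatases, RF replicate 2 was highest for SPRY2, SPRED2, DUSP4, DUSP5, DUSP12 and DUSP14 and lowest for SPRY1, DUSP1 and DUSP26. Over all tested members, RF replicate 2 was highest for 18.8% and lowest for 11.6%.

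Genes of the same pathways outside the symbol rule were read from lists. The core RAS-ERK cascade list (RAS, SOS, RAF, adaptors and downstream kinases) had 40 symbols, of which 28 were in the file and tested. It also held TAOK, TAB and TNIK genes, which belong to other MAP kinase branches. Of the 28 genes, 0 were called higher and 0 lower, with a median log2 fold change of 0.11. BRAF, a kinase that phosphorylates MEK, had 352 and 394 normalized counts in FF hens, against 376, 405 and 490 in RF hens. Its groups overlapped. Both FF libraries lay above all RF libraries for 5 genes of the list and below for 2 (background 19.3% and 16.9%). TAOK1, from those other branches, had the lowest adjusted p of the list (0.128 in limma). It had 4735 and 4767 in FF hens, against 2866, 3198 and 3738 in RF hens.

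The ERK-responsive list had 27 symbols, 18 in the file and 17 tested. Of these, 1 was called higher and 0 lower (beside 0.842% and 0.241% of all tested genes), with a median log2 fold change of −0.35. A response of the listed transcripts to ERK in these cells was not tested. The called gene was ELK3, an ETS-family partner of the serum response factor. It had 3561 and 4201 normalized counts in FF hens, against 1977, 1996 and 2181 in RF hens, and rose by 0.92 on the log2 scale with an adjusted p = 0.0370 in limma. The other 16 tested genes were not called, and 11 of the 17 fold changes were negative. FOS had 446 and 338 in FF hens, against 689, 635 and 759 in RF hens (−0.83, adjusted p = 0.0953), and MYC had 1404 and 1232 in FF hens, against 1701, 2104 and 1827 in RF hens (−0.51, adjusted p = 0.162). EGR1 had 26 and 38 in FF hens, against 86, 626 and 46 in RF hens, and HBEGF, a ligand of the EGF receptor, had 74 and 57 in FF hens, against 104, 221 and 85 in RF hens. Both FF libraries were below all RF libraries for these 4 of 17 tested genes (background 16.9%) and above for 2 (background 19.3%). For EGR1 and HBEGF the lowest RF hen was close to the FF level. TRIB1, a pseudokinase that binds MEK, stood the other way, with 1060 and 850 in FF hens, against 631, 687 and 463 in RF hens (0.70, adjusted p = 0.182). JUN, IER5 and FOSL2 overlapped between the diets, with log2 fold changes of −0.15, −0.16 and −0.35. ETV1, ETV5, CCND1 and ELK4 overlapped as well (0.05, 0.07, 0.08 and 0.44), and so did EGR3, ATF3, KLF2 and KLF6 (−1.72, −1.89, −1.09 and −0.41).

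The list of enzymes that make, remove or sense diacylglycerol, with PKC substrates and relatives, had 31 symbols, 28 in the file and 26 tested. Of these, 2 were called higher and 1 lower (beside 0.842% and 0.241% of all tested genes), with a median log2 fold change of −0.16. PLCG1, a phospholipase that makes diacylglycerol downstream of receptor tyrosine kinases, rose by 2.41 on the log2 scale, with 3317 and 2794 normalized counts in FF hens, against 616, 753 and 402 in RF hens (adjusted p = 0.0223). PLCD4, a calcium-activated phospholipase C, rose by 1.86, with 841 and 712 in FF hens, against 312, 165 and 185 in RF hens (adjusted p = 0.04996). DGKQ, a kinase that converts diacylglycerol to phosphatidic acid, fell by 0.92, with 966 and 1092 in FF hens, against 2026, 1827 and 1984 in RF hens (adjusted p = 0.0370). PRKD1, a kinase activated by PKC and diacylglycerol, had 114 and 107 in FF hens, against 271, 219 and 199 in RF hens, and was not called (−1.04, adjusted p = 0.0953). PLCH2 had the largest log2 fold change of the list, 2.81, and was not called (adjusted p = 0.144 in limma). It had 147 and 1112 in FF hens, against 44, 52 and 80 in RF hens. The paper lists both PLCG1 and PLCH2 among its top genes higher in FF hens, so PLCH2 passed its thresholds in DESeq2 on the same hens but not the threshold used here. Both FF libraries lay above all RF libraries for 4 tested genes of the list and below for 4 (background 19.3% and 16.9%). The called genes were lipid enzymes, and 0 of the PKC genes were called.

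Markers of other cells differed between libraries as well. Of 12 tested theca and stroma genes, 8 were highest in RF replicate 1, such as CYP17A1 with 73 and 134 normalized counts in FF hens, against 1794, 84 and 207 in RF hens. The median log2 fold change of the 12 was −1.95, with 9 negative, 5 below all RF libraries in both FF hens (background 16.9%) and 0 called. The 14 listed genes summed to 9280 and 9694 in FF hens and to 6755 to 10071 in RF hens, sums carried mostly by ACTA2, COL1A2 and MYH11, and PDGFRA and LUM were at 0 in both FF libraries. Of 5 tested endothelium genes 4 were negative, with a median of −0.83, such as KDR with 5 and 8 in FF hens, against 198, 21 and 32 in RF hens. The 5 summed to 1561 and 2780 in FF hens and to 1471 to 2058 in RF hens, sums carried mostly by PECAM1, whose fold change was positive. The 3 red blood cell genes found (of 5 listed) were higher in each FF hen, summing to 3628 and 3914 in FF hens and to 1282 to 1610 in RF hens. These sums were carried mostly by ALAS2, which was called, with 3369 and 3318 in FF hens. The globin genes HBA1 and HBBA were far lower and not called, HBA1 with 145 and 327 in FF hens, against 41, 27 and 60 in RF hens. The 6 oocyte genes found (of 7 listed) summed to 4543 and 4234 in FF hens and to 8139 to 9306 in RF hens. These sums were carried mostly by ZP2, which was called lower. Genes of endothelium, white blood cells and surface epithelium gave 0 calls. Red blood cell genes were thus on the side of MAPKKK3L, and oocyte genes and most theca, stroma and endothelium genes on that of MAPK8IP3, and their part in those results was not tested. Without RF replicate 1 the log2 fold changes of MAPKKK3L and MAPK8IP3 were 3.07 and −0.93.

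Scaling bears on the balance of directions. With libraries set to equal totals, the median of all tested genes was −0.13 and that of the members −0.16, and the FF libraries were above all RF libraries for 8 members (11.6%, beside 10.9% of all tested genes) and below for 22 (31.9%, beside 27.3%). Calls over all genes were then 90 higher and 70 lower, against 112 and 32 as deposited. Both MAPKKK3L (2.75) and MAPK8IP3 (−1.03) stayed called.

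**Figure D5:**
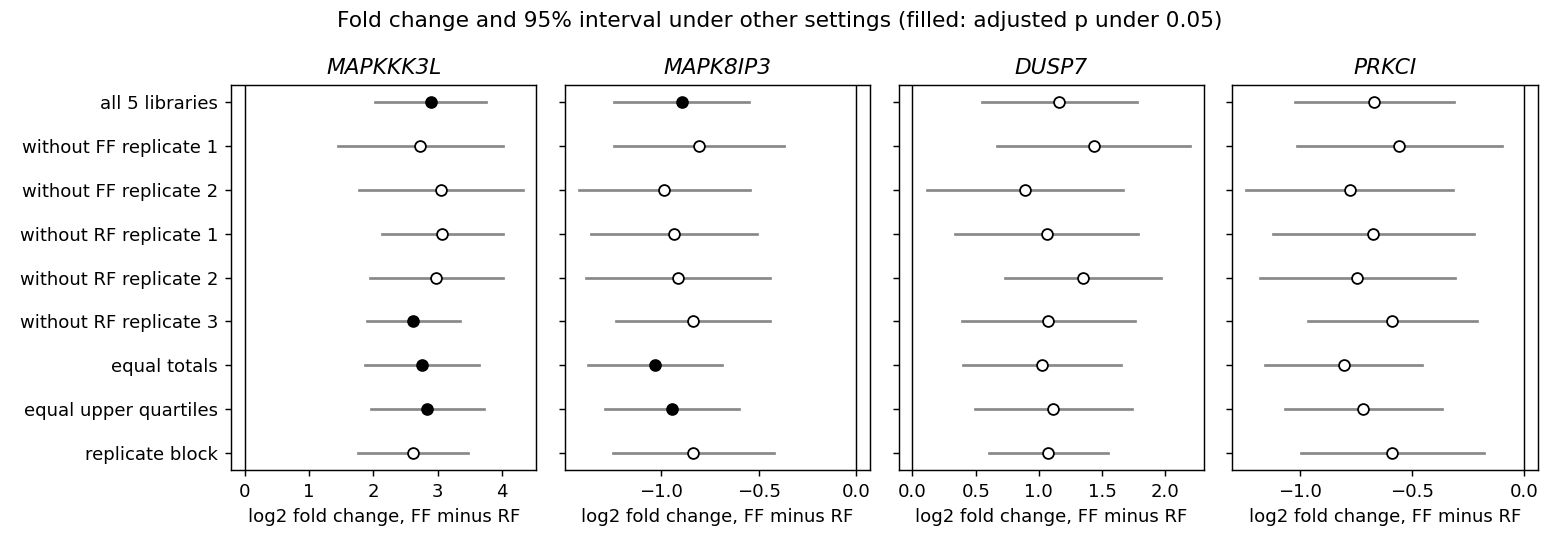
Log2 fold change, FF minus RF (x axes), with 95% intervals for MAPKKK3L, MAPK8IP3, DUSP7 and PRKCI with all 5 libraries, without each library, under 2 other scalings and with a replicate block (rows); filled points had an adjusted p under 0.05 in limma. No interval shown crosses 0, and MAPK8IP3 is filled with all 5 libraries and under both other scalings.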

How the data were processed

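Poly(A) RNA of granulosa cells from 2 FF and 3 RF hens was sequenced from directional libraries, 1 per hen. According to the submitters' processing notes and the paper's methods, the authors used Trim Galore, STAR (galGal6) and DESeq2. Not given in the sources used here were versions, the read counter, its use of strand and its treatment of reads shared between related genes. The authors deposited normalized counts without decimals, which were treated as a score and not as raw counts. The spacing of low values put 1 read at 0.813 to 1.213 normalized counts and below 1 in 3 libraries, where rounding merged neighbouring read counts, so no count model was run. All columns were mapped to samples by the labels.

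The fit was limma 3.58.1 in R 4.3.3 (FF minus RF, log2 with a pseudocount of 1, mean of at least 10, mean-variance trend, Benjamini-Hochberg over all 13305 genes), with 3 residual and 3.7 prior degrees of freedom. The fit was also run on simulated data, from which no power or error rate is drawn here. Low genes have understated fold changes on this scale. P-values rest on the spread between these hens, combined with the mean-variance trend over all tested genes. Members and lists were chosen with earlier results of these data known. By rule the text names each called member, the 8 largest non-overlapping changes per direction with a mean of at least 50, the most abundant member of each role, and all tested SPRY, SPRED, typical DUSP and PRKC genes. Of these, 1 gene is not reported here. Other genes were chosen after their values were seen. Alternatives changed the pseudocount (0.5, 8), minimum mean (none, 50), scaling, trend, robust variance, thresholds and replicate block, and left out each library. Gene identifiers and symbols are those of the file. Sequences and coordinates are not analysed here. Figures were drawn with matplotlib 3.10.9.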

Additional observations from a re-analysis of the deposited data

How the results depend on the processing

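With 2 FF hens, the calls changed with the settings and with the libraries included. Over the alternatives the log2 fold change ran from 2.62 to 3.07 for MAPKKK3L and from −1.03 to −0.80 for MAPK8IP3. Leaving out a library also lowered the residual degrees of freedom from 3 to 2, so a lost call does not single out that hen. The count of members called higher, 1 with all libraries, was 0 with no minimum mean, without the variance trend and with the replicate block, and ran from 0 to 1 when single libraries were left out. The count called lower, also 1, was 0 with a pseudocount of 0.5, no minimum mean, no trend, robust variances, the replicate block and the study's thresholds, and from 0 to 0 when single libraries were left out. MAPKKK3L was called under 7 of 14 alternatives and MAPK8IP3 under 4 of 14, both with the same sign in all of them, and 0 other members were called under any. Over all tested genes, where 112 were called higher and 32 lower, the counts were 13 and 1 with no minimum mean, 53 and 9 with the replicate block, 1 and 0 without either FF library, and 90 and 70 with equal totals. They were 20 and 3 when RF replicate 1 was left out, and 26 and 7 when RF replicate 2 was. Without the trend the limma count was 0, although 2188 genes had an unadjusted p under 0.05.

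Of 34 genes named by the rule, 28 kept their sign under all alternatives run, and so did 48 of the 69 tested members, including the 11 at an unadjusted p under 0.05. Much of this was fixed in advance. Changes of minimum mean, variance trend or robust variance leave a fold change as it was. The groups of those 11 genes, MAPKKK3L and MAPK8IP3 among them, did not overlap, so leaving out a hen could not turn their sign. The sign changed for MAP2K1 (−0.102 with equal totals, −0.014 with equal upper quartiles, −0.008 to 0.077 leaving out single libraries), MAP4K4 (0.146 with the replicate block, −0.17 to 0.146), MAPKAPK3 (−0.41 to 0.15), PRKCD (−0.17 to 0.071), PRKCE (0.38 with the replicate block, −0.22 to 0.38) and RASA4 (−0.017 with equal totals, −0.116 with the replicate block, −0.95 to 1.19). The cause of these changes was not tested.

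The replicate numbers mark different hens. Deviations of same-numbered hens from their diet mean correlated at 0.109 (replicate 1) and −0.073 (replicate 2) across genes. With 2 FF hens the FF deviations mirror each other, so these values cannot show whether same-numbered hens share more than a number. RF replicate 3 has no partner, so the fold changes with the block are those without RF replicate 3, and its lost calls mix that loss with a fall to 1 residual degree of freedom.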
